A study of Homo sapiens with 12 samples.

Results

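DCPS and NCBP1 encode 2 proteins that handle the methylated guanosine cap of mRNA, a hydrolase of cap residues and the large subunit of the nuclear cap-binding complex. They are described here in cells labelled HepG2, the name of a human liver carcinoma line. Every probe that the platform annotation assigns to either symbol was taken, which gave 1 probe for each, or 2 of the 13881 genes measured. The pair was put forward because its values with silymarin stood apart in earlier work on these arrays. Its levels and differences are therefore given as a description, with no test.

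The cells were grown in a serum-supplemented medium. Of 12 one-colour arrays of Cy5-labelled total RNA, 3 came from mock-treated control cells. The other cells received 25 µM of 1 agent, with 3 arrays each: glycyrrhizin, a saponin from liquorice, silymarin, the flavonolignan extract of milk thistle, or ursodeoxycholic acid, which is a bile acid. All groups share the one cell line, and nothing in the labels places the 3 arrays of a group in separate cultures, so the spread between them may be technical. The time of exposure was not stated in the labels.

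The cap is added early in transcription and is handled by a series of proteins. In the nucleus the cap-binding complex holds it: NCBP2 contacts the cap, and NCBP1, the large subunit, stabilises that contact and docks the factors for splicing, end processing and export. In the cytoplasm EIF4E takes the cap over for translation. Decay from the tail end by the exosome leaves a short capped fragment, and DCPS, a scavenger hydrolase of the histidine triad (HIT) family, splits that residue. DCPS thus acts at the end of an mRNA's life and NCBP1 at its start.

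The deposited intensities ran from 1 to 65221 with array medians of 85.8 to 86.6, and they had been brought to a common distribution before deposit. The median correlation across probes was 0.934 for pairs of arrays within a group and 0.933 between groups. Probes are not independent replicates. Silymarin replicate 2 and ursodeoxycholic acid replicate 1 had the lowest median correlation with the other arrays, at 0.911 and 0.908. Of 14 hepatocyte markers measured, 1, the apolipoprotein APOB, lay in the brightest 25% of genes, and the median marker stood at a log2 intensity of 6.84 against 6.70 for the median gene. Of 9 neuroblast markers 5 lay in that brightest part, TH at 12.49 and STMN2 at 11.08 among them. Another 2, ELAVL4 at 3.28 and CHGB at 5.67, lay below the median gene, as did 4 of the 14 hepatocyte markers. These levels go against the HepG2 label, so the cells are called by that label and not by a cell type. The medians of 7 leukocyte, 8 fibroblast and stellate cell and 10 endothelial and cholangiocyte markers were 5.29, 6.23 and 7.37. Summed intensity of the hepatocyte markers was 1893 to 2363 on the silymarin arrays and 2154 to 2404 on the control arrays. That of the neuroblast markers was 8183 to 9383 and 9211 to 10734. The fibroblast and stellate cell markers summed to 1465 to 1526 with silymarin and 1586 to 1950 in control, without overlap, and to 1986 to 2234 with glycyrrhizin and 1474 to 2219 with ursodeoxycholic acid. That sum leans on the brightest marker, COL1A1, which averaged 10.10 in control and 9.82 with silymarin. THY1, DCN, LUM and DES were also lower on average with silymarin than in control, while COL1A2, COL3A1 and PDGFRB were not. How often other sets of genes separate in this way was not counted. Leukocyte markers summed to 1054 to 1330 and 1080 to 1475 with silymarin and in control, and endothelial and cholangiocyte markers to 2110 to 2256 and 2097 to 2473. None of the 48 markers passed the test described below in any comparison. The part of these cell type levels in the values that follow was not tested.

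The stretch of 250 bases before the annotated start of DCPS is shown because it is where general and receptor-bound transcription factors would be sought for the member with the brighter probe. It is from RefSeq, build GRCh38.p14, chr11:126303810-126304059, plus strand, and the capitals mark the matches described after it.

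DCPS: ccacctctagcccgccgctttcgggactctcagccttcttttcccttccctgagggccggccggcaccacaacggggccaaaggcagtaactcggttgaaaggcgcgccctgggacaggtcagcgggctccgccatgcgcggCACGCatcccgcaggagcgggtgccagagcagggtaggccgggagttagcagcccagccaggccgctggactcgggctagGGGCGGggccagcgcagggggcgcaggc

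Its GC content was 71.2%, against a median of 58% over 35116 promoters of the same length, and 81.9% of these had less. Both strands were searched for 6 motifs. The GC box GGGCGG matched once, from base −28 to −23, as it does at least once in 42.6% of all promoters. The core GCGTG of the xenobiotic response element, bound by the aryl hydrocarbon receptor, matched once on the opposite strand, from base −108 to −104, and it is present in 32.2% of all promoters. The E-box CACGTG (in 6.3% of promoters), the TATA box TATAAA (10.7%), the CCAAT box (32%) and the cyclic AMP response element TGACGTCA (1.6%) had no match in this window. No marked match overlapped another. A match is a run of letters, and binding was not measured. For NCBP1 no promoter is shown.

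DCPS gave a bright signal in 3 of the 4 groups and a much weaker one with silymarin. In control its log2 intensity was 11.71, 11.24 and 10.80 on the 3 arrays, with a mean of 11.25 ± 0.45 (SD, n = 3). With glycyrrhizin it was 11.56, 11.19 and 11.58, a mean of 11.44 ± 0.22 (SD, n = 3). With ursodeoxycholic acid it was 11.43, 11.32 and 11.40, a mean of 11.38 ± 0.05 (SD, n = 3). These 9 arrays overlap from group to group, and the control arrays were the most spread among them. With silymarin the values were 8.79, 8.81 and 7.65, a mean of 8.41 ± 0.67 (SD, n = 3). All 3 silymarin arrays lay below all 9 others, and replicate 3 was the lowest by more than 1 log2 unit. On the linear scale the silymarin arrays read 200.3 to 448.3 and the other 9 arrays 1788 to 3354.

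The order of the group means was glycyrrhizin, ursodeoxycholic acid, control and, far below, silymarin. Neighbours among the first 3 did not differ beyond their spread: glycyrrhizin minus control was 0.19 (SE 0.33, 95% interval −0.54 to 0.92) and ursodeoxycholic acid minus control 0.13 (SE 0.33, −0.60 to 0.86). Glycyrrhizin minus ursodeoxycholic acid was 0.06 (−0.67 to 0.79). Changes of up to about those bounds in either direction cannot be told from none with 3 arrays a group. Silymarin minus control was −2.84 (SE 0.33, 95% interval −3.57 to −2.11), or 7.15-fold lower with an interval of 4.32 to 11.8. The distance from silymarin was 3.03 (SE 0.33) for glycyrrhizin and 2.97 (SE 0.33) for ursodeoxycholic acid, 8.17-fold and 7.83-fold. No gene of the 13881 had a more negative difference between silymarin and control than DCPS. These comparisons share the silymarin arrays, so their likeness is not independent evidence. DCPS was chosen for its values with silymarin, and neither its rank nor these intervals allow for that choice.

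**Figure D1:**
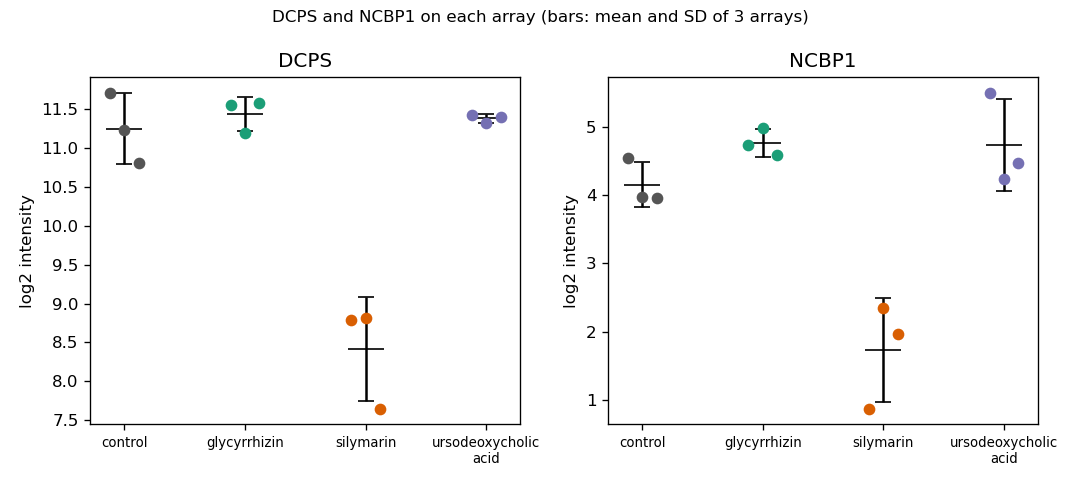
Log2 intensity of DCPS (left) and NCBP1 (right) on each of the 12 arrays, by group on the horizontal axis. Points are arrays and bars the mean and SD of 3 arrays. For both genes the 3 silymarin arrays lie below the 9 others, at 7.65 to 8.81 for DCPS and 0.87 to 2.35 for NCBP1. The vertical axes differ and do not start at 0.

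NCBP1 showed the same order of silymarin against the rest, at the other end of the intensity range. In control its log2 intensity was 4.54, 3.97 and 3.95, a mean of 4.15 ± 0.33 (SD, n = 3). With glycyrrhizin it was 4.74, 4.98 and 4.58, a mean of 4.77 ± 0.20 (SD, n = 3). With ursodeoxycholic acid it was 5.495, 4.24 and 4.47, a mean of 4.73 ± 0.67 (SD, n = 3). The lowest glycyrrhizin array, at 4.58, lay only just above the highest control array, at 4.54. The share of all genes with such an order was not counted. Replicates 2 and 3 of ursodeoxycholic acid lay within the control range, and its replicate 1 lay above every other array. With silymarin the values were 0.87, 2.35 and 1.97, a mean of 1.73 ± 0.76 (SD, n = 3). Every silymarin array was again below every other array, and here replicate 1 was the lowest, not replicate 3 as for DCPS.

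Silymarin minus control was −2.42 (SE 0.41, 95% interval −3.33 to −1.52) for NCBP1. As for DCPS, that interval does not allow for the choice of the gene by its silymarin values. Glycyrrhizin minus silymarin was 3.04 (SE 0.41) and ursodeoxycholic acid minus silymarin 3.003 (SE 0.41). Glycyrrhizin minus control was 0.61 (−0.30 to 1.52), ursodeoxycholic acid minus control 0.58 (−0.33 to 1.49) and glycyrrhizin minus ursodeoxycholic acid 0.03 (−0.88 to 0.94), so that the 3 upper groups did not differ beyond their spread. On the linear scale the silymarin arrays read 1.83, 5.08 and 3.92, next to the lowest deposited value of 1, and the other 9 arrays 15.5 to 45.1. No fold is given for values so near that limit. With 16 added to every intensity before the log, silymarin minus control shrank to −0.80 for NCBP1 and was −2.78 for DCPS, and with 50 added it was −0.34 and −2.66. An offset could not turn the direction, because every silymarin array lay below every other array. The size of the NCBP1 difference rests on intensities for which no detection call was available.

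Against all 27561 probes, the 2 members stood near opposite ends. The mean of the DCPS probe, 10.62 over 12 arrays, exceeded that of 94.65% of probes. On the 9 arrays without silymarin it ranked between 94.99% and 96.76% of the probes of its array, and with silymarin at 84.98%, 85.15% and 70.9%. DCPS with silymarin was thus still brighter than most probes on each array. The NCBP1 probe, with a mean of 3.85, exceeded 2.19% of probes. It ranked between 5.45% and 31.03% on the 9 arrays and between 0.16% and 0.72% with silymarin. A probe's brightness depends on its sequence as well as on its transcript, so these ranks do not compare the amounts of the 2 mRNAs, and whether the NCBP1 probe read its transcript above background was not tested. A weaker signal can come from less of the transcript per cell or from fewer cells that hold it, which cannot be told apart in bulk RNA.

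**Figure D2:**
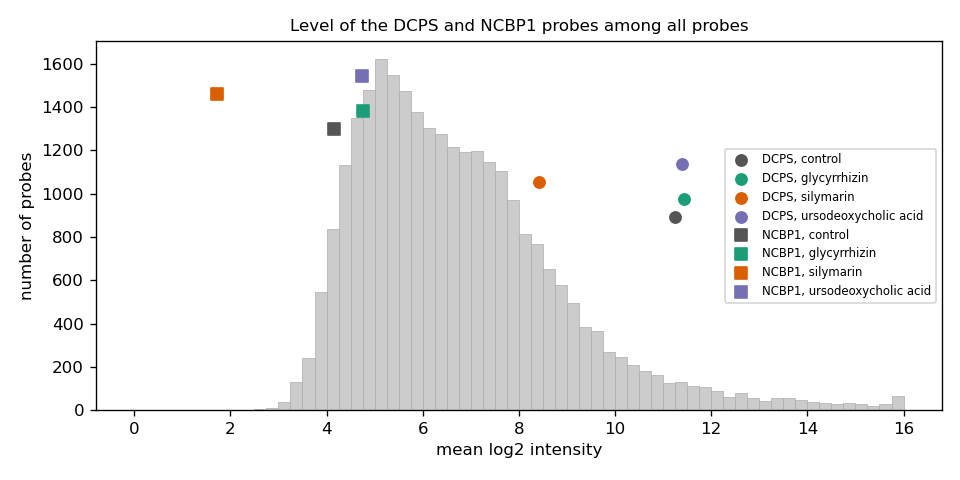
Number of probes (vertical axis) by mean log2 intensity over 12 arrays (horizontal axis, grey bars), with the group means of DCPS (circles) and NCBP1 (squares). The height of a symbol has no meaning. DCPS with silymarin, at 8.41, still lies above the bulk of probes, and NCBP1 with silymarin, at 1.73, lies below it.

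The spread of the members also differed from that of genes measured at like brightness. The residual SD of DCPS within groups was 0.42, larger than for 88.8% of the 500 genes nearest to it in mean level, whose median was 0.23. Over those 500 genes silymarin minus control ran from −0.79 to 0.83, with a median size of 0.17. The DCPS difference of −2.84 was the most negative of all genes, so its place outside this range was given beforehand. The residual SD of NCBP1 was 0.54, smaller than for all but 4.2% of the 500 genes around it, whose median was 0.95. Their silymarin minus control differences ran from −2.34 to 2.89 with a median size of 0.52. The NCBP1 difference of −2.42 was just past the lower end, in a part of the range where differences above 2 log2 units occurred in both directions. With a variance trend on brightness and robust estimation, set together, its SE rose from 0.41 to 0.61, while that of DCPS fell from 0.33 to 0.29. Both sets of 500 genes were matched on means over 12 arrays, which the silymarin arrays lower. Over the other 9 arrays DCPS averaged 11.36 and NCBP1 4.55. The part of this matching in the comparisons of SD was not tested.

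The gap between the highest silymarin array and the lowest of the 9 others was 1.996 log2 units for DCPS and 1.608 for NCBP1. Of all genes 148, or 1.07%, had the 3 silymarin arrays below the other 9, with a median gap of 0.09. DCPS and NCBP1 were the 2 with a gap of at least 1, and among all probes, of which 269 (0.976%) had the silymarin arrays lowest, there were 3. The next gene was the lysyl oxidase relative LOXL1 at 0.48. In the opposite direction 226 genes, 1.63%, had all silymarin arrays above the rest, with a largest gap of 0.83. The same count for ursodeoxycholic acid arrays below the rest was 52 genes (0.375%), with a largest gap of 1.59. Both members were chosen for standing apart with silymarin, so their place at the top of this list describes the choice as much as the arrays.

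**Figure D3:**
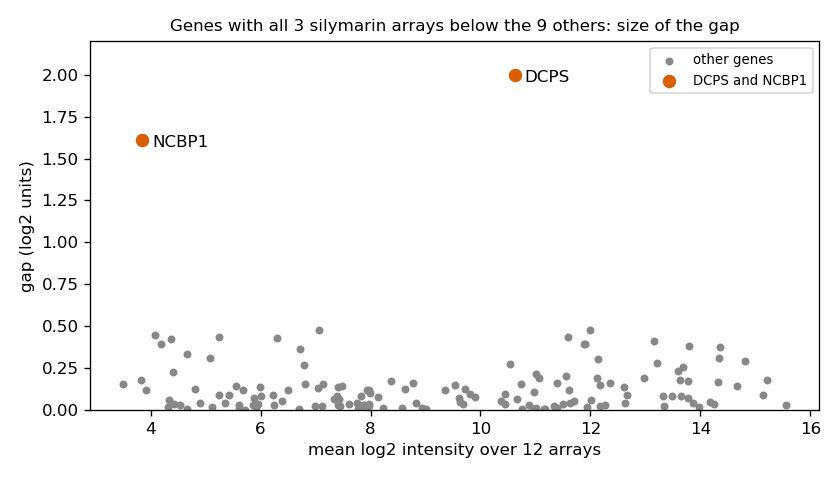
Gap in log2 units between the highest silymarin array and the lowest of the 9 other arrays (vertical axis) against mean log2 intensity (horizontal axis), for the 148 genes with a gap above 0. DCPS (1.996) and NCBP1 (1.608) stand above the other genes, of which the largest gap is 0.48.

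Apart from silymarin, the 2 members were not shown to vary together. Over the 9 arrays of the other groups their log2 intensities correlated with Pearson r = 0.42 (exact permutation p = 0.256, two-sided, n = 9) and Spearman rho = 0.43 (exact permutation p = 0.25, two-sided). Adjusted over these 2 relations both p-values were 0.256 by exact permutation. The arrays were permuted across groups as if each were independent, so these p-values do not measure how the members vary within a group. Without the 2 arrays farthest from the median of DCPS, r was 0.21 over 7 arrays. No r over all 12 arrays is given as a relation, because the silymarin arrays form a cluster of their own.

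Every silymarin array of both members lay below every other array, so leaving out 1 array could not turn the 3 comparisons with silymarin. Silymarin minus control ran from −3.06 to −2.45 for DCPS, the latter without silymarin replicate 3, and from −2.73 to −1.997 for NCBP1, the latter without silymarin replicate 1. Ursodeoxycholic acid minus silymarin for NCBP1 ran from 2.58 to 3.31. Among the other groups the sign of the small differences did depend on single arrays. For DCPS, glycyrrhizin minus control was −0.03 and ursodeoxycholic acid minus control −0.09 without control replicate 3, and glycyrrhizin minus ursodeoxycholic acid was −0.01 without glycyrrhizin replicate 3. For NCBP1 the last difference was −0.22 or −0.10 without ursodeoxycholic acid replicate 2 or 3 and −0.08 without glycyrrhizin replicate 2, while glycyrrhizin minus control stayed between 0.50 and 0.80 and ursodeoxycholic acid minus control between 0.20 and 0.83.

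The other genes of the cap and of mRNA decay were taken from 9 lists, of which 91 of 117 genes other than the members were measured. They were tested in limma over all genes with Benjamini-Hochberg adjustment at 0.05. With silymarin against control 0 of the 91 passed, as did 0% of all 13881 genes in either direction. At an unadjusted p under 0.05 there were 3 higher and 2 lower of the 91, against 3.05% and 2.19% of all genes, and the variance trend with robust estimation called 0 of the 91 too, against 0.0288% of all genes lower and 0% higher. Of the 91, 62 (68.1%) lay above control and 29 below, against 52.3% of all genes above, with a median difference of 0.09 against 0.02 over all genes. The lowest difference among the 91 was −1.26, against −2.84 for DCPS and −2.42 for NCBP1. For glycyrrhizin minus silymarin 0 of 91 passed, against 0.0144% of all genes higher and 0.036% lower. At an unadjusted p under 0.05 there were 2 higher and 8 lower (3.75% and 6.11% of all genes). For ursodeoxycholic acid minus silymarin 0 of 91 passed, again against 0.0144% and 0.036%, with 2 higher and 5 lower at an unadjusted p under 0.05 (3.49% and 5.03% of all genes). The variance trend with robust estimation called 0 of the 91 in both, against 0.375% of all genes higher and 1.19% lower for glycyrrhizin, and 0.036% and 0.0792% for ursodeoxycholic acid.

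In the comparisons without silymarin 0 of the 91 passed either, with or without the variance trend and robust estimation. For glycyrrhizin minus control 0% of all genes passed higher and 0.0072% lower in limma, or 0.0072% and 0.115% with trend and robust estimation. At an unadjusted p under 0.05 there were 0 listed genes higher and 1 lower, against 2.46% and 3.24% of all genes. For ursodeoxycholic acid minus control 0% of all genes passed in either direction in limma, or 0% higher and 0.0432% lower with trend and robust estimation. At an unadjusted p under 0.05 there were 1 higher and 2 lower of the 91, against 2.81% and 2.74%. For glycyrrhizin minus ursodeoxycholic acid 0% of all genes passed with either setting, and 1 higher and 1 lower of the 91 lay under an unadjusted p of 0.05, against 2.68% and 2.41%. Comparisons that share control or silymarin arrays are not independent of each other.

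**Figure D4:**
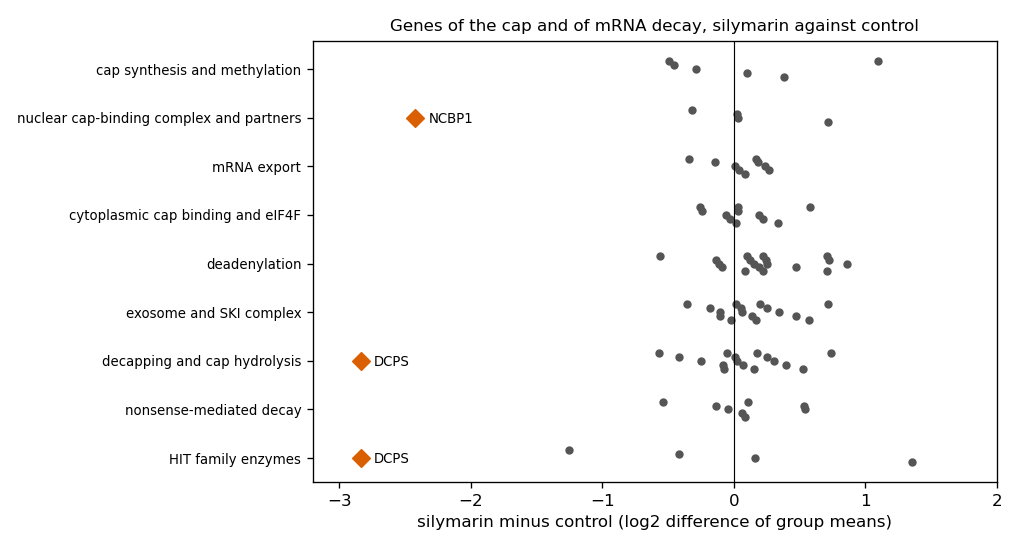
Silymarin minus control as a log2 difference of group means (horizontal axis) for the measured genes of 9 lists (rows). Grey points are the other genes, from −1.26 to 1.36, and orange diamonds are DCPS, a member of 2 lists, at −2.84 and NCBP1 at −2.42. The 2 members lie apart from the other genes of their lists.

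Among enzymes that make and methylate the cap, 0 of 6 measured genes passed with silymarin against control and the lowest adjusted p in limma was 0.928. RNGTT, which adds the cap, averaged 7.90 in control, 8.28 with silymarin, 7.43 with glycyrrhizin and 7.46 with ursodeoxycholic acid. Its silymarin arrays, at 7.96 to 8.70, overlapped those of control, at 7.37 to 8.57. The cap methyltransferase RNMT differed between silymarin and control by −0.29 (SE 0.20), and CMTR1, which methylates the first transcribed nucleotide, by −0.49 (SE 0.42). PCIF1, which adds a methyl group to a cap-adjacent adenosine, was the lowest of the list by p, at 11.20 to 11.43 with silymarin and 11.60 to 11.93 in control (log2 difference −0.45, SE 0.18, adjusted p = 0.928 in limma). All silymarin arrays of PCIF1 lay below the 9 other arrays, by a gap of 0.04, as was the case for 148 genes (1.07%). The PCIF1 difference did not pass. TGS1, which further methylates the cap of small RNAs, differed by 1.10 (SE 0.66) at low intensity.

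Of the partners of NCBP1, 4 were measured and 0 passed. NCBP2, the subunit that holds the cap, read 5.32, 5.55 and 5.89 in control and 7.97, 5.15 and 5.79 with silymarin (log2 difference 0.72, SE 0.57). Its difference rests on silymarin replicate 1, since the other silymarin arrays lie within or below the control values. The export adaptor ALYREF had group means between 13.65 and 13.73, with silymarin minus control at 0.02 (SE 0.18, 95% interval −0.38 to 0.43). PHAX, the adaptor for export of small nuclear RNAs, differed by 0.03 (SE 0.48), and CTIF, a translation factor that binds NCBP1, by −0.32 (SE 0.24). The adjusted p-values of all 4 in limma were 0.959 or more.

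Of 9 measured genes of mRNA export 0 passed in the 3 comparisons with silymarin. THOC1, a subunit of the THO complex, read 5.74 to 6.14 with silymarin and 3.51 to 5.01 with ursodeoxycholic acid (log2 difference −1.55, adjusted p = 0.35 in limma), and 5.09 to 6.03 in control. THOC2, of the same complex, was lower with glycyrrhizin than with silymarin by −0.71 (adjusted p = 0.353 in limma), and the export receptor NXF1 differed between silymarin and control by 0.24 (SE 0.16). In the cytoplasm, 0 of 11 measured genes of cap binding and the eIF4F complex passed. The cap-binding factor EIF4E differed between silymarin and control by −0.24 (SE 0.61). The scaffold EIF4G1 read 13.72 to 14.13 with silymarin and 12.90 to 13.61 in control (log2 difference 0.58, SE 0.22, adjusted p = 0.908 in limma). Its ursodeoxycholic acid arrays, at 13.646 to 13.865, also lay above all control arrays, so this was not particular to silymarin. The share of all genes with such separate ranges between a pair of groups was not counted, for EIF4G1 or for other list genes.

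DCPS works downstream of the enzymes of mRNA decay. Of 16 other genes of decapping and cap hydrolysis 0 passed with silymarin against control, 10 (62.5%, against 52.3% of all genes) lying above and 6 below it, with a median difference of 0.05. DCP1A, the activator of the enzyme that removes the cap from intact mRNA, read 6.12 to 6.59 with silymarin and 6.66 to 7.20 in control (log2 difference −0.57, SE 0.29, adjusted p = 0.932 in limma). The exonuclease XRN1, which degrades decapped mRNA, differed by 0.17 (SE 0.18), and LSM5, of the ring that binds shortened tails, by 0.74 (SE 0.35). The exosome, which produces the fragments that DCPS splits, had 16 measured genes in its list with the SKI complex, of which 0 passed and the lowest adjusted p was 0.942. EXOSC2, a subunit that binds RNA, was lower with glycyrrhizin than with silymarin by −0.65 (adjusted p = 0.298 in limma). MPHOSPH6, an exosome cofactor, differed between ursodeoxycholic acid and silymarin by −1.64. It passed in 1 alternative fit, without ursodeoxycholic acid replicate 3 (−2.54, adjusted p = 0.0378 in limma). In that fit 32 of 13881 genes passed, against 7 with all arrays. The ursodeoxycholic acid arrays of MPHOSPH6 ran from 4.45 to 7.94.

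Of 18 deadenylation genes 14 (77.8%, against 52.3% of all genes) lay above control with silymarin, with a median difference of 0.20 against 0.02 over all genes, and 0 passed. CNOT11, a subunit of the CCR4-NOT deadenylase, read 9.32 to 9.77 with silymarin, 8.90 to 9.21 in control and 8.45 to 8.999 with glycyrrhizin. Glycyrrhizin minus silymarin was −0.82 for CNOT11 (SE 0.21, adjusted p = 0.198 in limma), the lowest adjusted p among the 91 genes in that comparison. Of 8 genes of nonsense-mediated decay 0 passed. MAGOH, of the exon junction complex, was lower with glycyrrhizin than with silymarin by −0.89 (adjusted p = 0.343 in limma).

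DCPS shares its histidine triad with a small family of nucleotide hydrolases. Of 4 other family members measured 0 passed with silymarin. APTX, a DNA repair enzyme, read 2.42, 3.40 and 4.47 with silymarin and 4.82, 3.74 and 5.495 in control (log2 difference −1.26, SE 0.51, adjusted p = 0.931 in limma). Its silymarin and control arrays overlap, although the glycyrrhizin and ursodeoxycholic acid arrays, at 4.90 to 5.15 and 4.70 to 4.96, lay above all 3 silymarin arrays. HINT3 went the other way, with silymarin at 4.52 to 4.96 and control at 2.42 to 4.05 (log2 difference 1.36, SE 0.57, adjusted p = 0.931 in limma). Its glycyrrhizin arrays, at 2.985 to 4.79, and ursodeoxycholic acid arrays, at 3.80 to 5.37, overlapped those of silymarin and of control. How many of all genes separate silymarin from control in this way was not counted. The bright HINT2, a mitochondrial member, differed by 0.16 (SE 0.16). FHIT, a hydrolase of dinucleoside polyphosphates that also acts on cap-like compounds, differed by −0.42 (SE 0.45).

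The genes next to each member in the genome, 3 protein-coding genes on each side in the RefSeq gene table (GRCh38.p14), give a measure of the region. Of these 12 neighbours 11 were measured, and 0 passed in any comparison. At an unadjusted p under 0.05 in limma, 2 of the 11 lay in at least 1 of the 3 comparisons with silymarin, against 17.6% of all genes, a share near that background. Next to DCPS, TIRAP, an adaptor of Toll-like receptor signalling, differed between silymarin and control by −0.15 (SE 0.38) and ST3GAL4, a sialyltransferase, by 0.03 (SE 0.31). Next to NCBP1, TSTD2 differed by 0.26 (SE 0.27), while XPA, which overlaps NCBP1 in that table, was not analysed here. Over the 11 the difference ran from −0.77 for TMOD1 to 0.77 for the tRNA methyltransferase TRMO, and the lowest adjusted p in limma over the 3 comparisons with silymarin was 0.464.

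Genes with a like pattern were sought by the Pearson correlation of log2 intensity over the 12 arrays, as a measure of likeness with no test. Closest to DCPS were the thyroid hormone receptor THRA (r = 0.96), the cell cycle gene CDCA3 (0.94), the chromatin reader ING2 (0.94), N-cadherin CDH2 (0.93) and the tear lipocalin LCN1 (0.93). Closest to NCBP1 were THRA (0.93), the replication clamp partner PCLAF (0.93), the small GTPase ARF1 (0.92), ING2 (0.92) and CDH2 (0.92). NCBP1 ranked 7 among the genes most like DCPS, and DCPS 8 among those most like NCBP1 (r = 0.90). Both members were chosen for their silymarin values, on which this r and these ranks rest, so they are not given as a relation. Over the 9 arrays without silymarin r between the members was 0.42. All 7 named genes were bright, with means of 13.16 to 14.82, and far from the brightness of NCBP1. Their silymarin minus control differences were smaller, at −0.45 for THRA, −0.60 for CDCA3, −0.37 for ING2, −0.44 for CDH2, −0.67 for LCN1, −0.52 for PCLAF and −0.30 for ARF1, against −2.84 for DCPS.

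The likeness rested largely on the silymarin arrays. Over the other 9 arrays r with DCPS was 0.38 for THRA, 0.40 for CDCA3, −0.16 for ING2, 0.41 for CDH2 and 0.74 for LCN1. With NCBP1 it was 0.40 for THRA, 0.47 for PCLAF, 0.53 for ARF1, 0.46 for ING2 and 0.17 for CDH2. The most opposite pattern to DCPS was that of the junction protein gene AJAP1 (r = −0.94), at 9.86 to 10.07 with silymarin and 7.92 to 9.03 on the other 9 arrays. IFRD1 (−0.92) and RWDD3 (−0.92) followed. Most opposite to NCBP1 were PHETA2 (−0.92), AKIRIN2 (−0.89) and the NAD synthesis enzyme NAMPT (−0.88), all higher on average with silymarin than in the other groups.

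**Figure D5:**
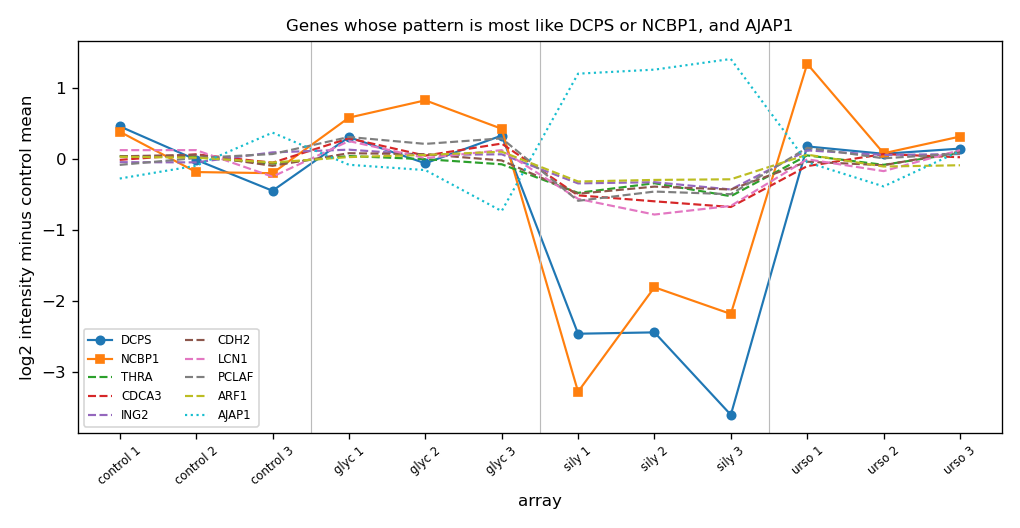
Log2 intensity minus the control mean (vertical axis) on the 12 arrays (horizontal axis, grouped by treatment) for DCPS and NCBP1 (solid lines), the 7 genes most alike (dashed) and AJAP1 (dotted). With silymarin the dashed lines average −0.67 to −0.30, DCPS −2.84 and NCBP1 −2.42, while AJAP1 averages 1.29.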

How the data were processed

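Total RNA of 12 arrays was measured. The deposited values are linear intensities, 1 for each probe of an array, and limma was used by the authors, per the submitters' processing notes. Scanner, background correction and batch: not given in the sources used here. Of 27561 probes 15650 carried 1 gene symbol, 0 several and 11911 none; 2355 older symbols were updated through RefSeq. Where a gene had several probes, the brightest on average stood for it. Log2 values were fitted in limma 3.58.1 (R 4.3.3) with 4 group means over 12 arrays and 2.71 prior degrees of freedom; tests were two-sided, adjusted over 13881 genes. The number of arrays limits the precision, and intervals are 95% intervals of that fit. The fit was tested on simulated data. Named genes were DCPS, NCBP1, the 5 genes most and 3 least alike, fixed partners, the 3 lowest p per list and comparison with silymarin, and 3 genomic neighbours a side; the text names some of these. LOXL1 and the cell type markers named were picked after their values were seen. The members and lists were chosen with earlier results of these data known. Alternatives covered the replicate block, normalization, dim probes, probe joining, a variance trend with robust estimation, offsets, compared groups alone and leaving out each array.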

Additional observations from a re-analysis of the deposited data

How the results depend on the processing

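DCPS and NCBP1 kept their direction with silymarin under every alternative run in which they were measured. Leaving out the dimmer 50% of probes removed NCBP1. Every silymarin array of both genes lay below every other array. Offsets, other variance estimates and leaving out an array therefore could not turn that direction. With an offset of 16 the NCBP1 difference was −0.80 for silymarin minus control, 1.15 for glycyrrhizin minus silymarin and 1.15 for ursodeoxycholic acid minus silymarin; with 50 these were −0.34, 0.53 and 0.54. Without 1 array, glycyrrhizin minus silymarin ran from 2.65 to 3.23 for DCPS and from 2.61 to 3.34 for NCBP1. Replicate numbers were not shown to pair the arrays: deviations of same-numbered arrays correlated at −0.19 to 0.15, and 4 of 12 arrays correlated best with their own number. With the replicate block, as with the compared groups only, 0 genes passed for glycyrrhizin minus control, glycyrrhizin minus silymarin and ursodeoxycholic acid minus silymarin, against 1, 7 and 7. Counts for glycyrrhizin minus control and glycyrrhizin minus silymarin were 2 and 15 after cyclic loess, 3 and 110 without dim probes, 17 and 217 with variance trend and robust estimation, 2 and 19 with offset 16, and 7 and 129 with offset 50. For silymarin minus control, ursodeoxycholic acid minus control and ursodeoxycholic acid minus silymarin they were 2, 2 and 4 without dim probes, 4, 6 and 16 with variance trend and robust estimation, and 1, 3 and 3 with offset 16; for the first pair they were 2 and 6 with offset 50. With every probe as a feature they were 0 for glycyrrhizin minus control and 0 for ursodeoxycholic acid minus silymarin. Without 1 array, counts ran from 0 to 3 for silymarin minus control, 0 to 0 for glycyrrhizin minus control, 0 to 20 for ursodeoxycholic acid minus control, 0 to 1 for glycyrrhizin minus silymarin, 0 to 32 for ursodeoxycholic acid minus silymarin and 0 to 1 for glycyrrhizin minus ursodeoxycholic acid, the counts of 20 and 32 arising without ursodeoxycholic acid replicate 3. The count of the 91 listed genes was 0 to 1 for ursodeoxycholic acid minus silymarin, with MPHOSPH6 as the 1 without that array, and 0 otherwise. Apart from the offsets, which were constructed to shrink dim values, the cause of these changes was not tested.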
